A study of Mus musculus with 6 samples.

Results

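The filamin C partners described here are 10 genes of striated muscle whose proteins bind filamin C or belong to the chaperone complex that handles it. They were taken by name from a list (*Xirp1*, *Xirp2*, *Synpo2*, *Synpo2l*, *Myoz2*, *Ldb3*, *Bag3*, *Hspb7*, *Hspb8* and *Hspb1*), and all 10 were found among the 54356 genes of the files. RNA was sequenced from E9.5 hearts of C57BL/6 mice in 3 control libraries, made from littermates, and 3 FlncgKO libraries, made from embryos in which *Flnc* was deleted globally by crossing Flnc fl/fl with Sox2Cre mice. The deletion was thus not limited to the cardiomyocytes. By the study's design it removes some exons of *Flnc* and leaves a premature stop codon that triggers decay of the mRNA. Counts were summed over the whole gene, so they include any RNA from the exons that remain. The labels name whole hearts and the study's methods name hearts or isolated ventricles. How many hearts went into a library and which Cre and floxed alleles the control littermates carried are not stated in the sources used here, so p-values measure the spread between these libraries, which may be partly technical.

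Filamin C is a large actin crosslinker of cardiac and skeletal muscle that sits at the Z disc, the plate that anchors the thin filaments of neighbouring sarcomeres, and at the costamere and intercalated disc, where myofibrils are fixed to the membrane. The Xin proteins (*Xirp1*, *Xirp2*) and the synaptopodin family members (*Synpo2*, or myopodin, and *Synpo2l*, or CHAP) bind actin and filamin, while calsarcin-1 (*Myoz2*) and ZASP or cypher (*Ldb3*) bind α-actinin in the Z disc. The co-chaperone BAG3 works with the small heat shock protein HSPB8 and with HSC70 to clear filamin damaged by mechanical strain through autophagy, a route in which SYNPO2 takes part. HSPB7 and HSPB1 are small heat shock proteins that bind filamin C itself.

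Motifs read by muscle and heat shock factors lie at the start sites of several partner genes. Promoters, defined as the 250 bases before and 50 bases after a RefSeq start site (GRCm38.p6), were listed for 9 of the 10 genes, and motifs were searched on both strands of these 300-base windows. A MEF2 site is the motif of a family of muscle transcription factors, and 3.19% of 32851 promoters in the genome held one. Among the matches given here it was found for *Synpo2*, *Synpo2l* and *Xirp2*. They are shown so that the sites can be compared, each with 10 bases on either side and with the match in capitals, written 5′ to 3′ on the gene's strand.
Synpo2: agcccggctaCTATTTATAGaataattaaa
Synpo2l, internal start: tggctcaggtTTATTTTTAGccaggcagac
Synpo2l, upstream start: gaaatttgtaCTATAATTAGttctaggagt
Xirp2: agctcagttcCTAAAAATAGgtgctaggtt
These stretches lie at chr3:123236366-123236395, chr14:20664699-20664728 and chr14:20668444-20668473, all on the minus strand, and at chr2:67445918-67445947 on the plus strand. The heat shock element, searched as GAANNTTC and read by heat shock factors, was found for the chaperone partners *Bag3*, *Hspb8* and *Hspb1*, against 7.86% of all promoters. *Hspb1* held 2 of them. Capitals mark the element.
Hspb1, distal: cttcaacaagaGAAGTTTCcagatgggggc
Hspb1, proximal: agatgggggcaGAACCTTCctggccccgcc
Hspb8: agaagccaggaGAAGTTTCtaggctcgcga
Bag3: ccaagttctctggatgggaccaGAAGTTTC
The *Hspb1* stretches are chr5:135887791-135887820 and chr5:135887811-135887840 on the plus strand, that of *Hspb8* is chr5:116422844-116422873 on the minus strand, and that of *Bag3* is chr7:128523603-128523632 on the plus strand. The elements of *Hspb8* and *Bag3* lie after the start site and those of *Hspb1* before it. *Ldb3* held a CArG box, the motif of serum response factor (1.63% of all promoters), 26 bases before the nearer of its start sites at chr14:34588697-34588726 on the minus strand.
Ldb3: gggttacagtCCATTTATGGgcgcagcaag
*Hspb7* held only the M-CAT motif CATTCC of the TEAD factors (14.7% of all promoters), which *Hspb1* held too. Other letters were not searched, and a match describes the sequence, not binding.

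Libraries held 19208859 to 23123255 estimated counts. *Flnc*, on chromosome 6, read 623 to 844 CPM in the control libraries and 127, 111 and 240.0 CPM in FlncgKO replicates 1, 2 and 3 (CPM, counts relative to the library total, with library sizes scaled by TMM). The fitted level was 4.63-fold lower (log2 fold change -2.21, with a standard error of 0.35), with an adjusted p of 0.0656 by edgeR's quasi-likelihood test and 9.94e-07 by DESeq2, and without FlncgKO replicate 3, the library nearest to the controls, edgeR gave an adjusted p of 0.0011. The summed level of 14 cardiomyocyte markers spanned 34508 to 38724 CPM over the controls and 31236 to 36458 CPM over the FlncgKO libraries, with a median log2 fold change of -0.12. By edgeR 0 of the 14 passed after adjustment, where 1.31% of all genes did. At p under 0.05 before adjustment 1 was higher and 4 were lower, beside 13.3% and 8.84% of all genes. DESeq2 called 1 higher and 2 lower, beside 6.22% and 2.27% of the genes it tested. Myogenic factors of skeletal muscle (*Myod1*, *Myf5*, *Myog*, *Pax3* and *Pax7*) were below 0.5 CPM in every library. Of the other skeletal muscle genes listed, *Myh3* was below 0.5 CPM too. *Chrng* read 0.145 to 0.750 CPM, *Ckm* 1.01 to 1.77 CPM and *Actn3* 1.24 to 4.25 CPM over the libraries. Markers of platelets and erythroid cells had larger median log2 fold changes, 5.06 and 0.87, though 0 of the 6 erythroid markers had p under 0.05 by edgeR. Those of smooth muscle did not, with a median of -0.084. Epithelial markers had a median of 0.90, with 0 of 5 at p under 0.05 by edgeR. They summed to 128 to 279 CPM in the controls and 245 to 507 CPM in FlncgKO. The 2 macrophage markers tested had a median of 2.49, and 1 passed after adjustment by edgeR. Endothelial markers had a median of 0.19, and epicardial and mesenchymal markers one of 0.38. The 7 platelet markers together reached 19.4 to 27.4 CPM in the controls, compared with 638, 399 and 102 CPM in FlncgKO replicates 1, 2 and 3, and the 6 erythroid markers 2601 to 7353 and 6434 to 10060 CPM. The 4 Y-linked genes summed to 117 to 140 CPM in the controls, to 80.7 CPM in FlncgKO replicate 1 and to 3.88 and 4.28 CPM in replicates 2 and 3, so the sex make-up of the libraries differed with genotype. Below, the 3 values of a group follow the order of replicates 1, 2 and 3. In bulk RNA, fewer cells of a type and less RNA per cell cannot be told apart.

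The partners covered a wide range of levels at E9.5. Compared per transcript length as TPM (a share of all transcripts, corrected for their length), the highest was *Hspb1* and the lowest *Xirp2*, with an 8536-fold ratio between their control means. *Hspb1* averaged 688 ± 80.0 TPM in control hearts (SD, n = 3) and ranked 208 among 26480 genes with a TPM above 0. *Hspb7*, *Ldb3* and *Synpo2l* followed with 282 ± 22.7, 214 ± 10.6 and 186 ± 12.9 TPM, all above *Flnc* itself with 116 ± 20.0 TPM. The middle of the order held *Hspb8* at 55.7 ± 9.14 TPM, *Xirp1* at 46.2 ± 1.91, *Bag3* at 42.2 ± 0.764 and *Synpo2* at 34.4 ± 1.98. *Myoz2* averaged 9.59 ± 3.23 TPM and *Xirp2* 0.0805 ± 0.0253 TPM, which put *Xirp2* at rank 22148. In the 3 control libraries no partner overlapped its neighbour in this order, although *Ldb3* and *Synpo2l* came close (lowest 202 and highest 200.2 TPM). In FlncgKO hearts the order of the means was the same among the 10 partners, but the libraries of *Ldb3* and *Synpo2l* overlapped, and those of *Hspb8* overlapped both *Xirp1* and *Bag3*. *Flnc* averaged 25.3 TPM there, below *Synpo2* with 28.2 TPM.

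**Figure D1:**
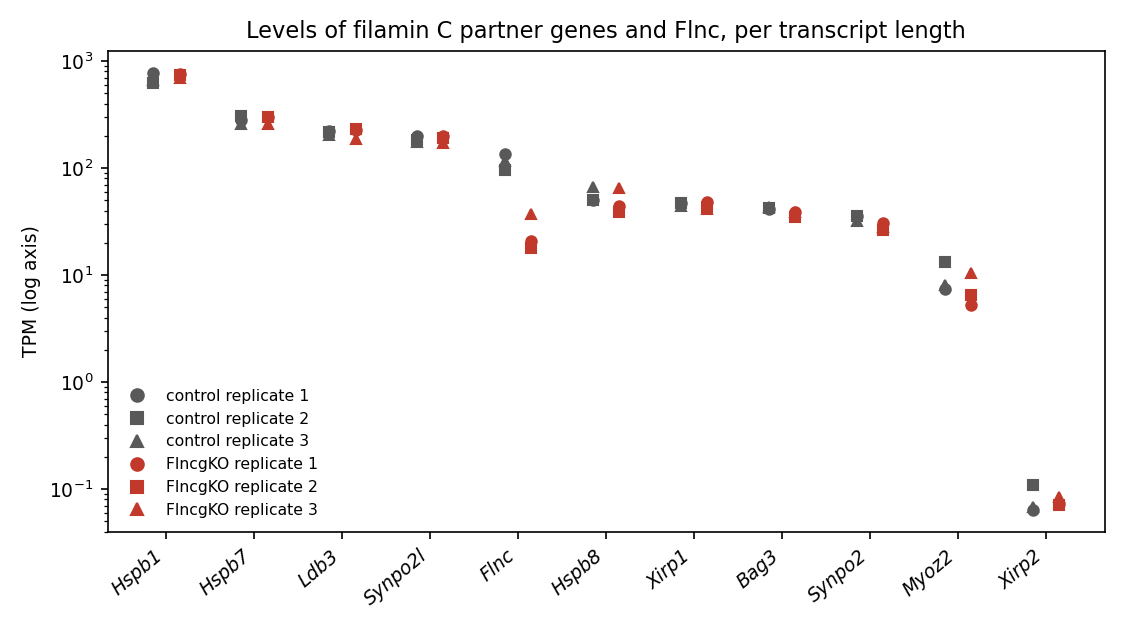
TPM of the 10 partner genes and *Flnc* in each library on a log axis, ordered by the control mean, with grey points for 3 control and red points for 3 FlncgKO libraries. The partners run from *Hspb1* (control mean 688 TPM) to *Xirp2* (0.0805 TPM), and *Flnc* is the gene whose red points lie far below the grey ones.

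None of the 10 partners passed the test between FlncgKO and control hearts at an adjusted p under 0.05 by edgeR, where 210 of 16048 genes did (1.31%). *Flnc*, the targeted gene, did not pass this test either (adjusted p = 0.0656 by edgeR), so not passing does not show that a level was unchanged. All 10 partners passed the filter on low counts. At an unadjusted p under 0.05 the count was 1 of 10, *Synpo2*, against 22.2% of all genes in either direction and 8.84% in that direction. DESeq2 called the same gene alone, where it called 8.49% of the genes it tested, 6.22% higher and 2.27% lower, and edgeR without a filter on low counts called it too, with a background of 1.93%. The libraries of the groups did not overlap for 2 partners, *Synpo2* and *Bag3*, both lower in FlncgKO, against 29.7% of all genes in either direction and 14.1% in that direction. Read against the shares in either direction, none of these counts exceeded by more than 1 what the background gives for 10 genes. Leaving out single libraries moved edgeR's count over all genes from 1 (without control replicate 1 or 2) to 1272 (without FlncgKO replicate 3), with 0 partners each time. The fitted log2 fold change was below 0 for 8 and above 0 for 2 of the partners, with a median of -0.10 beside 0.0087 over all genes tested. The median size regardless of sign was 0.13, beside 0.15 over all genes and 0.099 over the 4492 genes with a mean of 50 CPM or more.

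**Figure D2:**
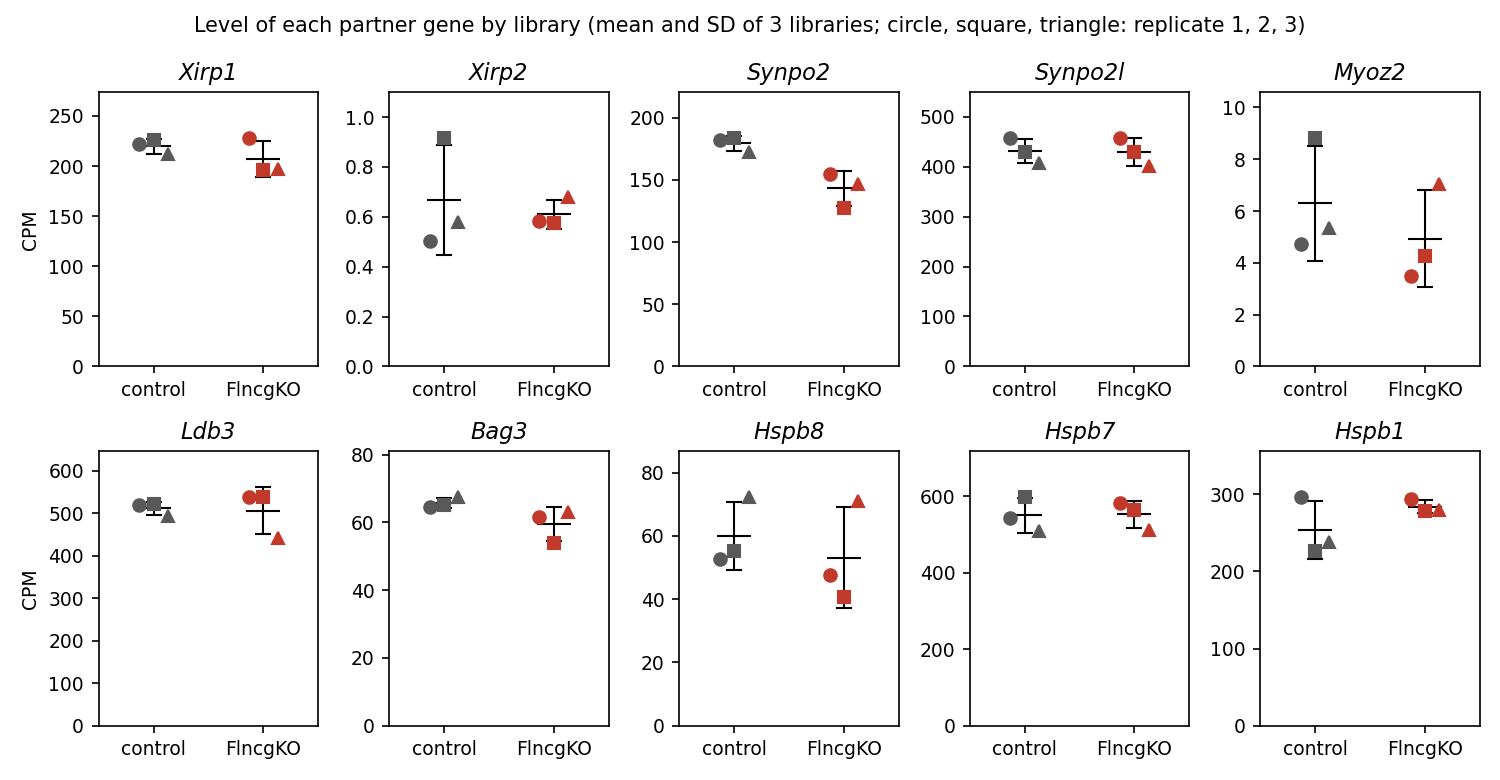
CPM of each partner gene in the 3 control (grey) and 3 FlncgKO (red) libraries, each panel from 0 on its own scale, with the mean and SD in black and the marker shape giving the replicate number. *Synpo2* shows the clearest gap between the groups (179 against 143 CPM on average), *Bag3* a narrow one, and the other 8 panels overlap.

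*Synpo2* (chr3:123076519-123236149, minus strand, GRCm38), whose protein binds filamin, α-actinin and actin at the Z disc and takes part in the BAG3 route, had the smallest p of the partners. Its level was 182, 184 and 173 CPM in the controls against 155, 128 and 147 CPM in FlncgKO. Every FlncgKO library was below every control library, with FlncgKO replicate 2 the lowest. The means were 179 ± 6.08 and 143 ± 14.01 CPM (SD, n = 3), so that FlncgKO hearts held 79.8% of the control level. The log2 fold change was -0.33 (with a standard error of 0.077, 95% interval -0.50 to -0.15), with an adjusted p of 0.0778 by edgeR and 0.00336 by DESeq2. Over 24 alternatives the log2 fold change ran from -0.40 to -0.18 and the adjusted p from 0.000268 to 0.754. DESeq2 kept an adjusted p under 0.05 when any 1 FlncgKO library or control replicate 3 was left out, and gave 0.0708 without control replicate 1 and 0.0746 without control replicate 2. Scaled by the cardiomyocyte markers instead of TMM, the log2 fold change was -0.26 with an adjusted p of 0.177 by edgeR, and with the Y-linked covariate it was -0.18 with 0.754. The libraries with the least *Synpo2* (FlncgKO replicates 2 and 3) are also those with the least Y-linked RNA, and the part of either measure in the difference was not tested.

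The 250 bases before the *Synpo2* start site hold the MEF2 match near their distal end, 227 bases from the start, at chr3:123236150-123236399 on the minus strand. They are printed because *Synpo2* is the partner with the smallest p. The same window follows for *Synpo2l*, its paralog, at its internal start (chr14:20664575-20664824, minus strand). Capitals mark the MEF2 match in each.
Synpo2: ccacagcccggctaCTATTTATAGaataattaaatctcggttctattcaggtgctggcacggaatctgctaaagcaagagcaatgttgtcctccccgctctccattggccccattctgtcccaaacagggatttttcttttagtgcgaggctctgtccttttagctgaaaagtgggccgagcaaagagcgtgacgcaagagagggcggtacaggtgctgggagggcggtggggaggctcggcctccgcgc
Synpo2l: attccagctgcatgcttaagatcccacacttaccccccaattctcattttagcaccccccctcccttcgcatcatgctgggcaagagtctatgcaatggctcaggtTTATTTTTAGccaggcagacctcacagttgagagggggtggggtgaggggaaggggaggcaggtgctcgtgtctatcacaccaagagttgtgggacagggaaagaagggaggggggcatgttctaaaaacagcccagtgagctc

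*Synpo2l* (chr14:20658946-20668354, minus strand) had a higher level than *Synpo2* per length and showed no difference of similar size. It read 457, 429 and 408 CPM in the controls against 458, 429.7 and 402 CPM in FlncgKO. The groups spanned the same range. The log2 fold change was -0.0040 (standard error 0.066) with an adjusted p of 0.979 by edgeR, and the 95% interval in percent of the control level ran from -10.3% to 10.9%, while that of *Synpo2* ran from -29.5% to -9.74%. The difference between the paralogs was not tested.

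**Figure D3:**
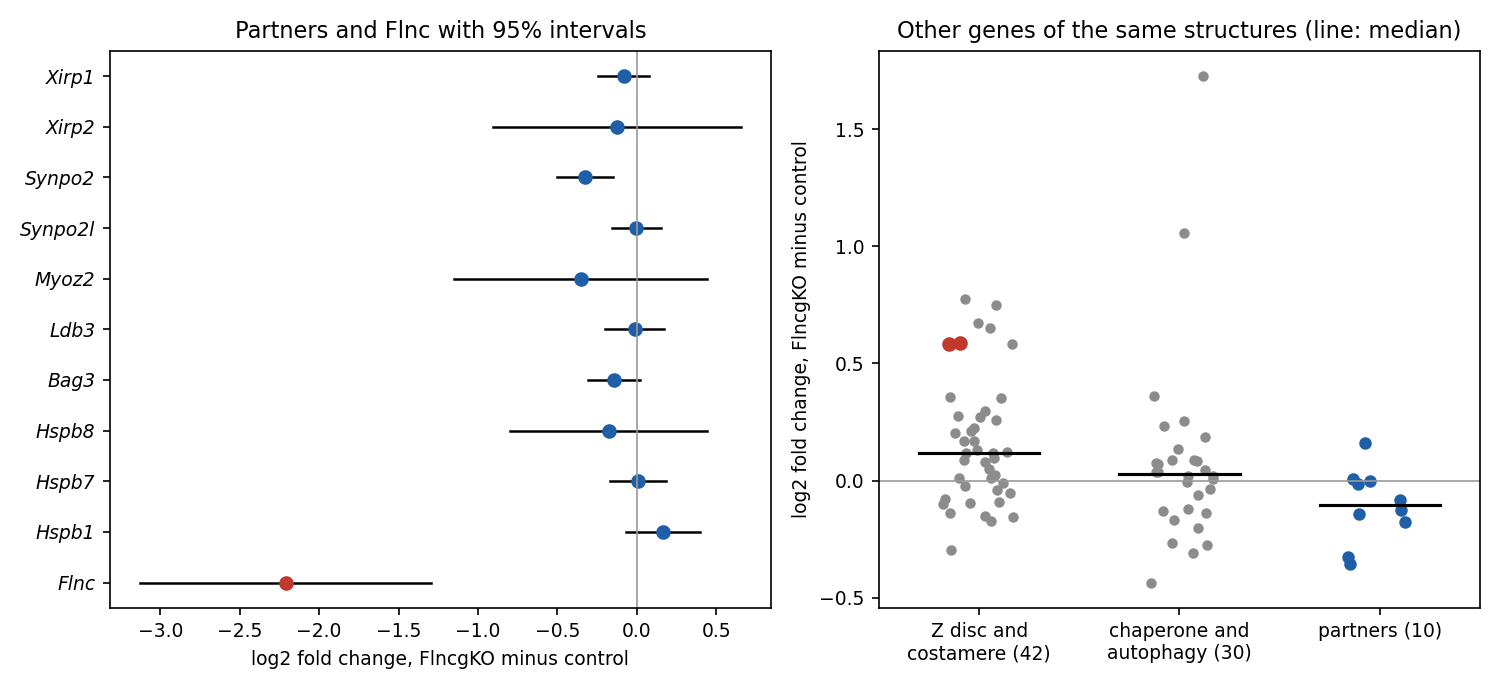
Left, fitted log2 fold change (FlncgKO minus control) with its 95% interval for the 10 partners (blue) and *Flnc* (red). Right, the same quantity for 42 other Z disc and costamere genes, 30 chaperone and autophagy genes and the 10 partners, with the median as a line (0.12, 0.029 and -0.10) and the 2 genes past the threshold, *Zyx* and *Tln1*, in red.

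The Xin-repeat proteins bind and crosslink actin at the intercalated disc and also bind filamin C. *Xirp1* (chr9:120013755-120023598, minus strand) read 221, 226 and 212 CPM in the controls against 228, 196 and 197 CPM in FlncgKO. FlncgKO replicate 1 was the highest of all 6 libraries and the other FlncgKO libraries the lowest, so the groups overlapped. The log2 fold change was -0.084 (with a standard error of 0.069, 95% interval -0.25 to 0.078, adjusted p = 0.524 by edgeR). *Xirp2* (chr2:67446002-67526614, plus strand) was barely detected, with 81 counts in all 6 libraries together and 11 to 19 in each. Its level was 0.503, 0.917 and 0.580 CPM in the controls against 0.581, 0.574 and 0.678 CPM in FlncgKO. Control replicate 2 stood highest and control replicate 1 lowest. At this depth its 95% interval in percent of control was -46.6% to 57.2%, so the direction of a difference was not resolved.

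*Myoz2* and *Ldb3* encode Z-disc proteins, calsarcin-1, which tethers calcineurin there, and the PDZ-LIM protein ZASP. *Myoz2* (chr3:123006206-123035015, minus strand) read 4.71, 8.83 and 5.36 CPM in the controls against 3.49, 4.28 and 7.04 CPM in FlncgKO. The libraries overlapped, and the SD of each group was larger than the gap between the means of 6.30 ± 2.21 and 4.94 ± 1.86 CPM. It had the largest fitted difference of the partners, -0.35 on the log2 scale, and also the largest standard error, 0.34, so that its 95% interval ran from -1.15 to 0.44 (adjusted p = 0.586 by edgeR). Its fold change moved from -0.70 to -0.034 on the log2 scale when single libraries were left out of edgeR's fit. *Ldb3* (chr14:34526603-34588682, minus strand) was measured far more precisely, at 519, 521 and 494 CPM in the controls against 538, 538 and 443 CPM in FlncgKO. FlncgKO replicate 3 was the lowest library and the other FlncgKO libraries were the highest. The log2 fold change was -0.015 (with a standard error of 0.080, adjusted p = 0.937 by edgeR), and the interval in percent of control ran from -13.0% to 12.7%.

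*Bag3* (chr7:128523616-128546981, plus strand), the scaffold of the filamin-clearing complex, read 64.5, 65.2 and 67.5 CPM in the controls against 61.7, 53.9 and 63.1 CPM in FlncgKO. All 3 FlncgKO libraries lay below all 3 controls, with control replicate 1 and FlncgKO replicate 3 nearest to each other. The means were 65.8 ± 1.54 and 59.6 ± 4.98 CPM, a log2 fold change of -0.14 (with a standard error of 0.070, 95% interval -0.31 to 0.020), with an adjusted p of 0.280 by edgeR and 0.379 by DESeq2. Without FlncgKO replicate 2 the log2 fold change was -0.077 with an adjusted p of 0.490 by edgeR, and scaled by the cardiomyocyte markers it was -0.079 with 0.791. *Hspb8* (chr5:116408491-116422864, minus strand), the small heat shock protein that BAG3 binds, read 52.6, 55.2 and 72.3 CPM in the controls against 47.7, 40.5 and 71.1 CPM in FlncgKO. In both groups replicate 3 stood well above the others, and these 2 libraries also had the highest globin share of their groups, 0.905% and 1.24% of counts against 0.297% to 0.820% in the rest. The log2 fold change was -0.18 (with a standard error of 0.25, 95% interval -0.80 to 0.44, adjusted p = 0.723 by edgeR), and -0.45 with an adjusted p of 0.155 without FlncgKO replicate 3. The part of the globin share in these levels was not tested.

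The small heat shock proteins that bind filamin C directly had the highest transcript levels per length of the partners. *Hspb7* (chr4:141420779-141425311, plus strand), a cardiac member of the family, read 543, 598 and 509 CPM in the controls against 582, 564 and 513 CPM in FlncgKO. The FlncgKO libraries all lay inside the control range. Its log2 fold change of 0.0073 (with a standard error of 0.075, adjusted p = 0.967 by edgeR) turned below 0 under 12 of 24 alternatives, DESeq2 among them, and its interval in percent of control was -10.9% to 13.4%. *Hspb1* (chr5:135887919-135889563, plus strand), the widely expressed HSP27 of other species, read 297, 226 and 239 CPM in the controls against 294, 278 and 280.3 CPM in FlncgKO. Control replicate 1 was just above the highest FlncgKO library and the other controls were below all FlncgKO libraries. The means were 254 ± 37.6 and 284 ± 8.57 CPM, a log2 fold change of 0.16 (with a standard error of 0.0998, 95% interval -0.072 to 0.40), with an adjusted p of 0.384 by edgeR and 0.460 by DESeq2. Without control replicate 1 the log2 fold change of *Hspb1* was 0.29 with an adjusted p of 0.216 by edgeR, and DESeq2 gave 0.28 with an adjusted p of 0.00295, the single alternative of 24 in which it passed.

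Most partners were read from a single transcript. *Bag3* has 1 annotated transcript, as does *Hspb7*. The leading transcript took at least 94.1% of the counts of *Hspb1*, *Hspb8*, *Myoz2* and *Synpo2l* as a mean over the libraries. For *Synpo2l* that was the shorter form, Synpo2l-203, which encodes 749 amino acids and held a mean of 96.9% of the counts. Synpo2l-202, which encodes 978, held 2.53%. *Synpo2* and *Ldb3* were divided among several. Synpo2-201 (702 amino acids) held 51.0% ± 4.54 of the *Synpo2* counts in control and 51.7% ± 4.26 in FlncgKO hearts (SD, n = 3), Synpo2-207 (1087 amino acids) 36.5% and 36.7%, and Synpo2-202 (1257 amino acids) 12.4% and 11.5%. The share of Synpo2-201 differed by 0.722 percentage points (exact permutation test, two-sided, p = 0.8, adjusted over the 2 genes tested 0.8). By TPM, Synpo2-201 had 18.7, 20.3 and 15.9 in the controls against 15.5, 14.8 and 14.4 in FlncgKO, and Synpo2-202 had 5.26, 5.42 and 4.41 in the controls against 3.35, 3.62 and 4.24 in FlncgKO. For these transcripts every FlncgKO library was below every control library, while Synpo2-207 overlapped, with 11.9, 9.49 and 11.9 TPM in the controls against 10.8, 6.93 and 9.498 TPM in FlncgKO. Of *Ldb3*, Ldb3-201 (723 amino acids) held 77.5% ± 1.03 in control and 76.0% ± 1.25 in FlncgKO hearts, a difference of -1.46 percentage points (exact permutation p = 0.3, adjusted 0.6). Ldb3-203, the short form of 327 amino acids, held 9.72% and 10.2%. With 3 libraries against 3 the smallest p this test allows is 0.1, and shares between transcripts with common exons are salmon's estimates.

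**Figure D4:**
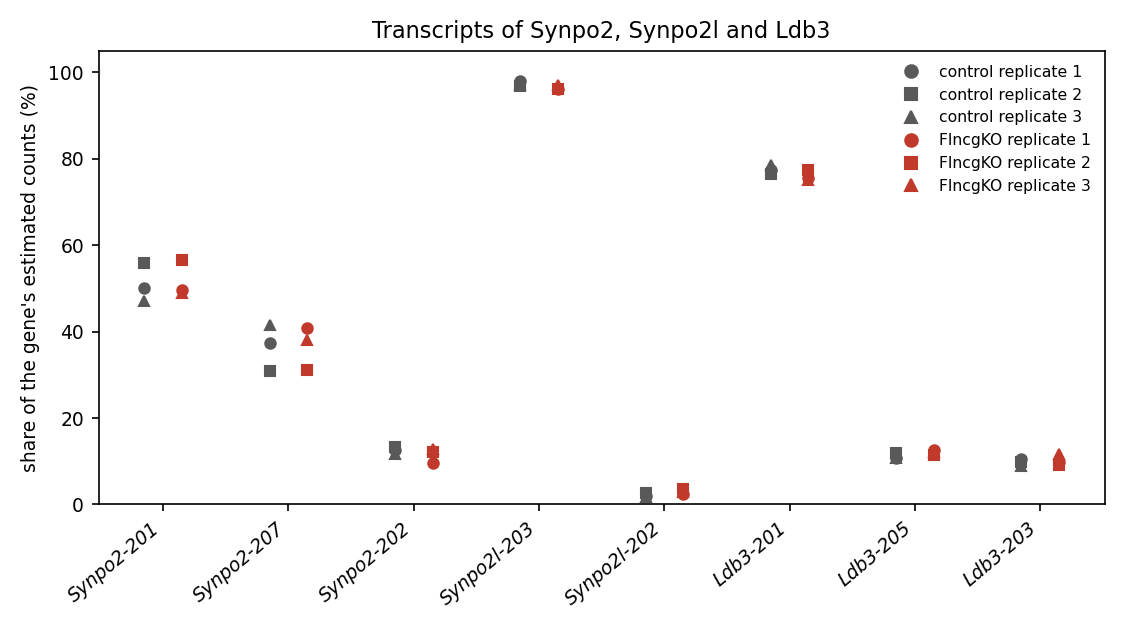
Share of a gene's estimated counts, in percent, assigned to each transcript of *Synpo2*, *Synpo2l* and *Ldb3* with a mean share of at least 2%, in 3 control (grey) and 3 FlncgKO (red) libraries. The ranges of the control and FlncgKO points overlap for each transcript, with control means of 51.0% for Synpo2-201 and 77.5% for Ldb3-201.

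Among 43 other genes of the Z disc and costamere, 42 were tested and 2 rose past the threshold, *Zyx* and *Tln1*, and none fell by edgeR (backgrounds of 1.06% and 0.249%). Before adjustment 13 genes were higher and 2 lower with p under 0.05, beside 13.3% and 8.84% of all genes, and 7 were called by DESeq2, all higher, beside 6.22%. The groups did not overlap for 12 higher and 2 lower genes, against 15.7% and 14.1% of all genes, and the median log2 fold change was 0.12. *Zyx*, or zyxin, a LIM protein of stretched actin bundles, read 162, 164 and 178 CPM in the controls against 286, 246 and 223 CPM in FlncgKO (log2 fold change 0.58, with a standard error of 0.092, adjusted p = 0.0394 by edgeR). *Tln1*, or talin-1, which links integrins to actin, read 334, 367 and 362 CPM in the controls against 602, 534 and 464 CPM in FlncgKO (0.59, standard error 0.095, adjusted p = 0.0411 by edgeR). For both genes the groups stood clear of each other, and FlncgKO replicates 1, 2 and 3 came in the same order as the platelet marker sum of 638, 399 and 102 CPM. Platelets are rich in both proteins, and the part of platelet RNA in these differences was not tested. Both calls by edgeR were lost when any 1 library other than FlncgKO replicate 3 was left out (adjusted p 0.0637 to 0.216 for *Zyx* and 0.0678 to 0.216 for *Tln1*), with log2 fold changes of 0.48 to 0.62 and 0.49 to 0.61. DESeq2 called both genes without any single library, with adjusted p of at most 0.00135 for *Zyx* and 0.00108 for *Tln1*. Without FlncgKO replicate 3 the list had 10 genes past edgeR's threshold. Next by p were *Pdlim3*, the α-actinin-associated LIM protein, with a log2 fold change of 0.35 (adjusted p = 0.0844 by edgeR), and *Fblim1*, or migfilin, which binds filamin, with 0.30 (adjusted p = 0.0934). Their libraries did not overlap, at 60.3, 74.0 and 61.5 against 79.1, 86.5 and 84.7 CPM for *Pdlim3* and at 47.9, 54.2 and 54.8 against 58.6, 67.1 and 67.1 CPM for *Fblim1*.

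Some further genes of that list were picked after their values were seen. *Myoz1*, the paralog of *Myoz2*, read 16.1, 18.2 and 15.2 CPM in the controls against 12.8, 12.9 and 14.6 CPM in FlncgKO, without overlap (log2 fold change -0.30, adjusted p = 0.156 by edgeR). *Myot*, or myotilin, and *Myoz3*, the other calsarcin gene, stayed under 1 CPM in every library, with fitted log2 differences of 0.65 and 0.78 (adjusted p = 0.319 and 0.431 by edgeR). The sarcoglycan gene *Sgcd*, whose protein binds filamin C, read 1.78, 2.36 and 1.21 CPM in the controls against 2.19, 3.18 and 2.66 CPM in FlncgKO, which overlapped (log2 fold change 0.58, adjusted p = 0.285 by edgeR). *Sgcb* had a fitted log2 difference of 0.094 (adjusted p = 0.635 by edgeR). The β1 integrin gene *Itgb1* had a fitted log2 difference of 0.17 (adjusted p = 0.200 by edgeR) and α-actinin-2, *Actn2*, one of -0.053 (adjusted p = 0.759). *Ankrd1*, a stretch-responsive gene that was among the 7 called by DESeq2, read 612, 581 and 729 CPM in the controls against 1150, 1168 and 751 CPM in FlncgKO (log2 fold change 0.67, adjusted p = 0.126 by edgeR). FlncgKO replicate 3 was again the library nearest to the controls.

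Of 30 genes of the chaperone and autophagy route around BAG3, 0 passed the test by edgeR, and before adjustment 1 was higher and 5 were lower with p under 0.05, beside 13.3% and 8.84% of all genes. DESeq2 called 2 of the 30, *Hspa1a* higher and *Dnaja1* lower, beside 8.49% of all genes. The median log2 fold change was 0.029. *Dnaja1*, an HSP40 co-chaperone, read 272, 272 and 275 CPM in the controls against 226, 190.4 and 244 CPM in FlncgKO (log2 fold change -0.31, adjusted p = 0.103 by edgeR), and without FlncgKO replicate 3 it passed with -0.39 and an adjusted p of 0.0219, 1 of 2 genes of this list that did. *Hspa1a*, the inducible HSP70, read 1.69, 1.45 and 3.14 CPM against 3.04, 9.93 and 7.87 CPM (log2 fold change 1.73, with a standard error of 0.51, adjusted p = 0.126 by edgeR). Its near-identical copy *Hspa1b* shares reads with it, and their sum was 5.35, 4.10 and 15.6 CPM in the controls against 9.93, 21.4 and 28.6 CPM in FlncgKO, which overlapped. *Hspa4* had a fitted log2 difference of -0.17 (adjusted p = 0.130 by edgeR) and *Hspb2*, a muscle small heat shock protein, one of -0.20 (adjusted p = 0.147). The BAG3 partners in the clearing complex, picked after their values were seen, were not called by the main fit of either tool. *Hspa8*, which encodes HSC70, read 2909, 2883 and 2809 CPM in the controls against 2474, 1978 and 2655 CPM in FlncgKO (log2 fold change -0.28, adjusted p = 0.181 by edgeR). FlncgKO replicate 2 was the lowest for it as for *Bag3*, *Hspb8* and *Dnaja1*. DESeq2 gave *Hspa8* an adjusted p of 0.0547, and called it lower with the replicate block and without FlncgKO replicate 2 or 3. *Stub1*, the ubiquitin ligase CHIP of the complex, had a fitted log2 difference of 0.020 (adjusted p = 0.891 by edgeR).

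The genes whose pattern over the 6 libraries was most like that of *Synpo2*, by the root mean square difference of log2 levels centred on each gene's mean, were *Haus7*, *Myo7a* and *F8*, at 0.018, 0.028 and 0.030. In all, 667 genes lay within 0.1. *Haus7* read 32.2, 32.7 and 31.5 CPM in the controls against 27.9, 23.3 and 26.0 CPM in FlncgKO, the same order as *Synpo2* in FlncgKO hearts. Its log2 fold change was -0.32 (adjusted p = 0.0850 by edgeR), beside -0.30 for *Myo7a* (adjusted p = 0.106) and -0.30 for *F8* (adjusted p = 0.293).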

How the data were processed

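The authors quantified polyadenylated, strand-specific libraries with salmon on the transcripts of GENCODE M22 (GRCm38.p6), a tool whose version is not given in the sources used here, and tested genes with DESeq2 1.22.2. The deposited tables give each of 140658 transcripts an estimated count and a TPM value. Estimated counts were summed per gene through GENCODE M21 (also GRCm38, 0.3704% of transcripts unmatched and left out) and rounded. The authors' TPM values were summed per gene to compare levels between genes. Groups follow the sample labels. Genes were tested with edgeR 4.0.16 in R 4.3.3 (robust quasi-likelihood, TMM, filterByExpr with a minimum of 10 counts, Benjamini-Hochberg over 16048 genes, threshold 0.05), with DESeq2 1.42.0 as an alternative. Both were also run on simulated counts. Those had the same dispersion for every gene and independent libraries, so they do not show how the tests perform on these libraries. Motifs were searched in RefSeq promoters, and 1 promoter match is not reported here, so the partners named for a motif are not a complete list.

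The members and gene lists were chosen with earlier results of these data known. Named are all partners and *Flnc*, members of the other lists past the threshold or among the 4 smallest p, and the 3 genes nearest to *Synpo2* in pattern. Others were picked after their values were seen. Alternatives were other scalings, filters, length offsets, coding transcripts only, a replicate block, a Y-linked covariate and leaving out libraries. DESeq2 with the block or without single libraries was added after seeing the data.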

Additional observations from a re-analysis of the deposited data

How the results depend on the processing

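The main limits are 3 libraries a group, unknown numbers of hearts per library, sex and blood cell content that differ with genotype, and low counts of *Xirp2* and *Myoz2*. Macrophage and epithelial markers also had median log2 fold changes of 2.49 and 0.90. Same-numbered libraries had correlations of deviations of 0.0428, 0.571 and 0.605. Control replicates 2 and 3 correlated best with the FlncgKO library of the same number, and control replicate 1 with FlncgKO replicate 2 (0.192). Control replicate 2 with FlncgKO replicate 3 gave -0.548, and control replicate 3 with FlncgKO replicate 2 gave -0.618. The sources do not say whether numbers mark litters, so the main fit took no pairs, and pairing is not excluded. With the replicate block 632 genes passed, with 0 partners, 4 Z disc and costamere genes and an adjusted p of 0.0535 for *Synpo2* by edgeR, and DESeq2 with the block gave 1021 genes, 1 partner, 4 Z disc and 4 chaperone genes and -2.29 for *Flnc*. The cause of the changes below was not tested.

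The count over all genes (210) was 598 scaled by cardiomyocyte markers, 554 without a filter, 107 with coding transcripts only, 0 with the Y-linked covariate and 1349 by DESeq2. It ran from 1 (without control replicate 1 or 2) to 1272 (without FlncgKO replicate 3) when single libraries were left out of edgeR, and in DESeq2 it was 659, 674 and 1223 without control replicates 1, 2 and 3 and 1167, 687 and 1805 without FlncgKO replicates 1, 2 and 3. The count of partners (0) was 1, *Synpo2*, without a filter (adjusted p = 0.0238 by edgeR) and by DESeq2. It stayed at 0 without single libraries in edgeR. In DESeq2 it was 0 without control replicate 2 and 1 without each of the others, *Hspb1* without control replicate 1 and *Synpo2* in the rest. The Z disc count (2) was 4 with marker scaling, 1 with length offsets, 0 with coding transcripts only or the Y-linked covariate, 7 by DESeq2, 0 to 10 without single libraries in edgeR (10 without FlncgKO replicate 3) and 2 to 15 in DESeq2 (4, 5 and 15 without control replicate 3, FlncgKO replicate 1 and FlncgKO replicate 3). The chaperone count (0) was 2 by DESeq2, 0 to 2 without single libraries in edgeR (2 without FlncgKO replicate 3) and 0 to 5 in DESeq2 (4, 5, 2 and 5 without control replicate 3 and FlncgKO replicates 1, 2 and 3). *Flnc* (-2.21) passed at -2.21 without the robust option, at -2.22 by DESeq2 and at -2.63 without FlncgKO replicate 3, and ran from -2.63 to -2.01 in edgeR without single libraries. In DESeq2 it was -2.11, -2.33 and -2.21 without control replicates 1, 2 and 3 and -2.08, -2.02 and -2.64 without FlncgKO replicates 1, 2 and 3.

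Partners near 0 changed sign. With the Y-linked covariate *Xirp1* was 0.091, *Synpo2l* 0.11 and *Ldb3* 0.091, and with marker scaling *Synpo2l* was 0.057 and *Ldb3* 0.044. *Hspb7* was -0.021 with total counts only, -0.0048 without a filter, -0.00081 by DESeq2 and -0.00016 by DESeq2 with the block. Without single libraries the edgeR ranges were -0.29 to 0.17 for *Xirp2*, -0.058 to 0.041 for *Synpo2l*, -0.067 to 0.073 for *Ldb3* and -0.047 to 0.070 for *Hspb7*. In DESeq2, *Xirp2* was 0.16 without control replicate 2, *Synpo2l* 0.032 without control replicate 1 and 0.036 without FlncgKO replicate 3, *Ldb3* 0.067 without FlncgKO replicate 3, and *Hspb7* -0.0096, -0.053, -0.042 and -0.014 without control replicates 1 and 3 and FlncgKO replicates 1 and 2. The share of Synpo2-201 differed by -0.0121 percentage points by the authors' TPM and by -1.73 to 3.19 without single libraries, and that of Ldb3-201 by -2.17 to -0.918.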

Other observations

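In 2 autophagy genes, picked after their values were seen, the replicate 3 libraries stood highest in each group as they did for *Hspb8*. *Sqstm1*, or p62, which hands ubiquitinated cargo to autophagosomes, read 97.2, 93.5 and 129 CPM in the controls against 111, 121 and 143 CPM in FlncgKO. *Gabarapl1*, an ATG8 protein, read 21.6, 20.8 and 33.0 CPM in the controls against 30.2, 27.8 and 39.0 CPM in FlncgKO. The groups overlapped for both genes. For *Nbr1*, *Map1lc3b* and *Map1lc3a*, of the same route, FlncgKO replicate 2 was the highest FlncgKO library. By edgeR the log2 fold changes of *Sqstm1* and *Gabarapl1* were 0.23 and 0.36 with adjusted p of 0.414 and 0.391. *Hspb3*, the skeletal and cardiac partner of *Hspb2*, read 18.2, 20.5 and 14.8 CPM in the controls against 16.4, 10.6 and 12.5 CPM in FlncgKO, which overlapped (log2 fold change -0.44, adjusted p = 0.224 by edgeR).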
